A study of Mus musculus with 2 samples.

Results

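The 9 genes *Bdnf*, *Ntf3*, *Gdnf*, *Artn*, *Nrtn*, *Penk*, *Tac1*, *Calca* and *Calcb*, which encode neurotrophic factors or neuropeptides, were followed through the cells of CT26 tumors. They were picked by symbol, as 9 of the 33696 genes listed in the count matrices. All 9 had at least 3 unique molecular identifiers (UMIs, each a tag on 1 captured RNA molecule) over both libraries, which was the limit set for detection, and *Ntf3* only just reached it. In outline, *Bdnf* was found mainly in the cells called tumor-like here, whose largest cluster also carried fibroblast genes, *Penk* and *Calca* were found mainly in the T-like cells, *Calcb* was found in T-like and, in UT, dendritic-like cells, *Tac1* and *Artn* were found mainly in a small fibroblast-like cluster, *Gdnf* was low, and *Ntf3* and *Nrtn* were close to the limit of detection.

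The tumors were grown from CT26, a colon carcinoma line of the mouse, under the skin of male BALB/c mice aged 6 to 8 weeks. The study asked how blocking nerve signals in the tumor alters its cells. One library came from untreated (UT) tumors and the other from tumors given a single BUP-Gel dose, a hydrogel that carried 40 mg/kg of bupivacaine (BUP), a local anesthetic that blocks sodium channels. Each library pooled 3 tumors, so there was 1 library per group, no replicate and no test between groups, and a library of gel without drug was not analysed here. Sorted live CD45+ (immune) and CD45- cells had been mixed before loading, in 4 parts to 1 part by the labels and in 3 parts to 1 part by the study's methods, and this mixing sets the share of immune and non-immune cells.

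Neurotrophins are secreted proteins that keep neurons alive and guide their growth, and BDNF and NT-3 (from *Ntf3*) act through receptor tyrosine kinases of the TRK family. GDNF, artemin (*Artn*) and neurturin (*Nrtn*) bind a GFRα co-receptor and signal through RET. Neuropeptides are cut from larger precursors: *Penk* gives the enkephalins, which act on opioid receptors, *Tac1* gives substance P, and *Calca* and *Calcb* give the α and β forms of calcitonin gene-related peptide (CGRP), which is best known from sensory nerve endings.

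The deposited matrices hold 7556 barcodes with 83228442 UMIs for UT and 7221 barcodes with 89918925 UMIs for BUP. After filtering, 7163 UT and 6776 BUP-treated cells were kept, with medians of 8430 and 10420 UMIs, and 76 barcode sequences occurred in both deposited libraries. Cells were clustered without the 9 genes, and clusters were named from marker genes with the ending -like, so the classes are rebuilt and are not the study's own. The tumor-like class (1128 UT and 2433 BUP-treated cells) had Y-linked transcripts, which mark cells of the male hosts, at a summed 5.70 and 4.98 UMIs per 1000000 UMIs of the class (CPM), against 134 and 121 CPM in the fibroblast-like class and 215 and 237 CPM in the T-like class. The epithelial marker *Epcam* was nearly absent from the tumor-like cells (0.144 CPM in UT and 0 in BUP), while the fibroblast genes *Dcn* (573 and 587 CPM) and *Col1a2* (503 and 520 CPM) were present there at a lower level than in the fibroblast-like cells. The largest tumor-like cluster, led by *Aspn* and *Ogn* (2018 of the 3561 cells), could be called fibroblasts by its leading genes. Its summed fibroblast markers were 2565 CPM (UT) and 1947 CPM (BUP), against 47548 and 28946 CPM in the fibroblast-like cluster, and its summed Y-linked transcripts 7.31 and 4.57 CPM, and it was kept in the tumor-like class by its markers. The 8 tumor markers include *Ogn* and *Aspn*, which lead this cluster, so its name is not independent of them, and *Aspn* was higher in UT fibroblast-like cells (202 CPM) than in UT tumor-like cells (102 CPM). A cluster of 699 cells carried both T cell and macrophage markers, and 44.3% of its cells were among the 6% with the highest doublet scores, so it was kept apart as a mixed T and myeloid cluster. Doublets were not removed.

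All levels below are in CPM, are not corrected for gene length, and are compared between cells. Where genes of a list are ordered, the order is one of uncorrected CPM only. Intervals in brackets or ranges are 95% intervals, exact Poisson for levels, exact binomial (Clopper-Pearson) for shares, and exact conditional on the summed counts for log2 ratios of BUP over UT. All of them cover counting error only, not the spread between mice. Ratios were taken for a gene with at least 20 UMIs over both libraries in a class. Of all genes that met this rule, the share with a ratio of at least 2 in either direction was 3.73% in tumor-like, 18.2% in fibroblast-like, 3.76% in T-like, 3.53% in NK-like, 4.34% in macrophage and monocyte-like and 5.14% in dendritic-like cells. In all, 12 pairs of member and class met the rule, and 6 of the 12 were past 2-fold, with 4 lower and 2 higher in the BUP library. The lower pairs were *Penk* in tumor-like, T-like and NK-like cells and *Tac1* in fibroblast-like cells. The higher pairs were *Calca* and *Calcb* in T-like cells. Of the 4 lower pairs, *Penk* in NK-like cells met the rule by its UT UMIs alone, with 0 UMIs in BUP. Among genes with at least 50 UMIs the shares past 2-fold were smaller, such as 1.82% in T-like and 1.29% in NK-like cells. Genes near the limit of 20 UMIs thus passed 2-fold more often than the shares above. *Penk* in NK-like and *Tac1* in fibroblast-like cells lay near this limit.

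To show the regions in front of the 4 genes that carry most of the UMIs, the 250 bases before the start of the canonical transcript are printed, read 5′ to 3′ on the gene's strand from GRCm39 with GENCODE vM39. Capitals mark matches on either strand to 6 motifs. They were the GC box, spelled GGGCGG, and the site of AP-1 factors, spelled TGANTCA with N for any base. The third was the TATA box, spelled TATAAA. The cAMP response element, a site of CREB, was searched in full as TGACGTCA and also by its core, spelled TGACG, which lies inside the full element. The last was a variant of that element, spelled TGCGTCA, which overlaps the core when it is read on the other strand.
*Bdnf*, chr2:109523658-109523907, plus strand: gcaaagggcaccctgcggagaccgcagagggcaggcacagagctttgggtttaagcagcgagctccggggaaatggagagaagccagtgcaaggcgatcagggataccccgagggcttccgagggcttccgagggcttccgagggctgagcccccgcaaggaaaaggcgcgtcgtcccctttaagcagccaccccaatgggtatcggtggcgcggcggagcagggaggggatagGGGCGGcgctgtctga
*Penk*, chr4:4138969-4139218, minus strand: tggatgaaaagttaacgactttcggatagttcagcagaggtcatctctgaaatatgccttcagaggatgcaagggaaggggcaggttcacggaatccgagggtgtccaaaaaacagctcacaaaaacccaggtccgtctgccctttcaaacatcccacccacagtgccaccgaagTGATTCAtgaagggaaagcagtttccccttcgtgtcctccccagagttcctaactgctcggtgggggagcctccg
*Calca*, chr7:114235593-114235842, minus strand: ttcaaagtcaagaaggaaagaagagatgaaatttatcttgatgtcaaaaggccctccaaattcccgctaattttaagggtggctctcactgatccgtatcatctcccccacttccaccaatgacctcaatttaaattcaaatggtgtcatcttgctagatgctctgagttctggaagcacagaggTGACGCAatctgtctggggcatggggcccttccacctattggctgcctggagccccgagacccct
*Calcb*, chr7:114317628-114317877, plus strand: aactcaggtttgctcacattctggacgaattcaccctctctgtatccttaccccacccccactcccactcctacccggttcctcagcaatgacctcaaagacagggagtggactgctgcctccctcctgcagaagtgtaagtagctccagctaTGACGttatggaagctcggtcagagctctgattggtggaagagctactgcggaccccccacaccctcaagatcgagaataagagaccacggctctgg
The *Bdnf* window held 1 GC box, a match present in 36.3% of 21770 windows of the same length before protein-coding genes. The *Penk* window held 1 AP-1 match 75 bases before the start (6.17% of windows). The *Calca* window held the variant TGCGTCA, read on the opposite strand, 65 bases before the start (1.73% of windows), and the *Calcb* window held the core TGACG 97 bases before the start (18.0% of windows). A match is a description of the letters and not of binding. *Bdnf* is known to start from several promoters and has 18 annotated transcripts, and gene counts do not show which start was used. The same limit holds for *Penk*, *Calca* and *Calcb*, with 7, 14 and 5 annotated transcripts. The *Penk* gene reaches to position 4141856, upstream of the canonical start at 4138968 that was used here.

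*Bdnf* lies at chr2:109505045-109557475 on the plus strand. It had the most UMIs of the 9 genes, with 2663 UMIs in 940 cells of the UT library and 5421 UMIs in 1925 cells of the BUP library. Of its 8084 UMIs, 93.8% (93.2 to 94.3%) lay in tumor-like cells and 4.87% (4.41 to 5.37%) in a cluster led by *Xkr4*. The plot of UMI shares by class shows this split beside those of the other genes.

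**Figure D1:**
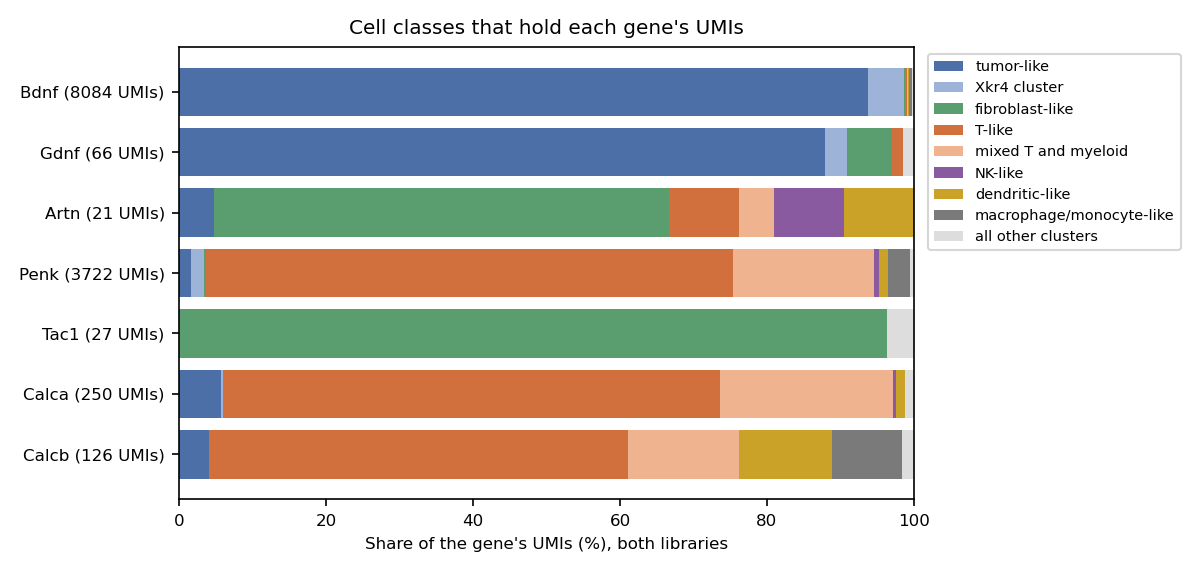
Share of each gene's UMIs (horizontal axis, %, both libraries together) held by each cell class, for the 7 genes with at least 20 UMIs. Bars are colored by class, and *Bdnf* and *Gdnf* lie mostly in tumor-like cells, *Artn* and *Tac1* in fibroblast-like cells, and *Penk*, *Calca* and *Calcb* in T-like cells and the mixed T and myeloid cluster.

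In tumor-like cells, *Bdnf* stood at 86.5 CPM (83.1 to 90.1) in UT and 105 CPM (102 to 108) in BUP. The log2 ratio was 0.28 (0.21 to 0.35), which is 1.21-fold and under the 2-fold limit. The share of tumor-like cells with a *Bdnf* UMI was 73.8% in UT and 74.4% in BUP, at median depths of 20335.5 and 17757 UMIs. When each cell was thinned to 2000 UMIs, which left out 27 UT and 20 BUP-treated cells, these shares were 17.5% (15.3 to 19.9%) and 19.1% (17.6 to 20.8%). In thinned cells the log2 ratio was 0.17 (-0.05 to 0.41), an interval that includes 0.

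The tumor-like class was made of 3 clusters, and *Bdnf* differed among them by more than the counting error. The cluster led by *Aspn* and *Ogn* had 105 CPM in UT and 125 CPM in BUP. The cluster led by *Nppb* and *Krt20* had 88.9 and 95.1 CPM, and the cycling cluster 62.5 and 68.9 CPM. The order of the 3 clusters was thus the same in both libraries. The log2 ratio was 0.25 (0.14 to 0.37) in the *Aspn* and *Ogn* cluster, 0.10 (-0.01 to 0.20) in the *Nppb* and *Krt20* cluster and 0.14 (-0.04 to 0.33) in the cycling cluster, so that the interval left out 0 in the first of them alone. Whether the 3 ratios differ was not tested. The *Aspn* and *Ogn* cluster held 509 of the 1128 UT and 1509 of the 2433 BUP-treated tumor-like cells.

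The *Xkr4* cluster (92 UT and 117 BUP-treated cells) carried markers of tumor-like and fibroblast-like cells and stayed unnamed. Its *Bdnf* level was the highest of any cluster, at 151 CPM (132 to 173) in UT and 166 CPM (142 to 191) in BUP. The intervals of the 2 libraries overlap. The median mitochondrial share of this cluster was 7.27%, and its cells were otherwise not resolved further.

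**Figure D2:**
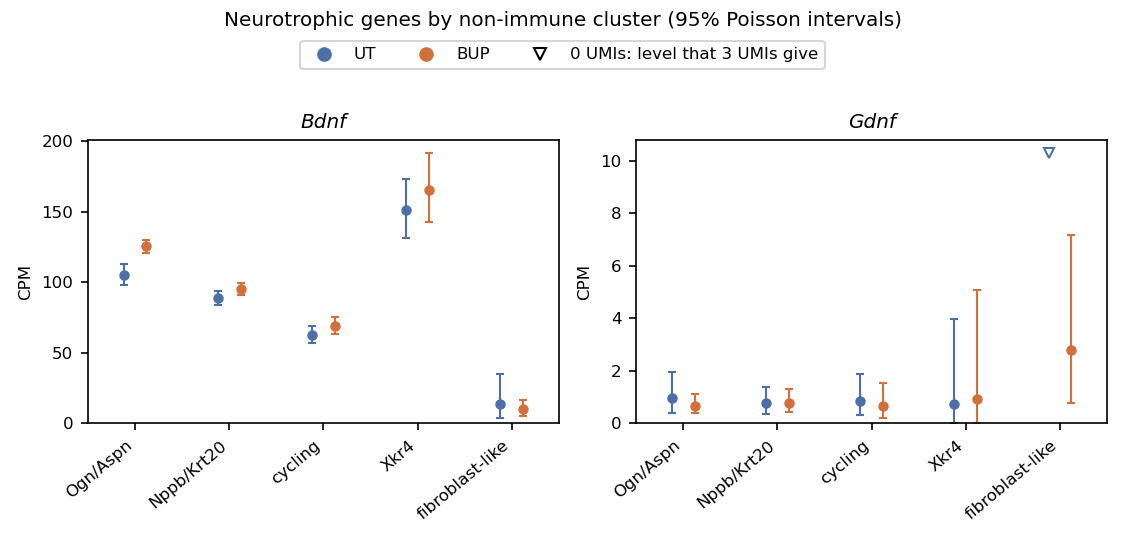
Levels of *Bdnf* (left) and *Gdnf* (right) in CPM (vertical axis) in the 3 tumor-like clusters, the *Xkr4* cluster and the fibroblast-like cluster, for UT (blue) and BUP (orange). Points are summed levels, bars are 95% Poisson intervals and an open triangle marks a cluster with 0 UMIs at the level that 3 UMIs would give; *Bdnf* is highest in the *Xkr4* cluster (151 and 166 CPM) and lowest in the fibroblast-like cluster (13.7 and 9.81 CPM) of the 5 shown.

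Outside these cells *Bdnf* was low. The fibroblast-like cells, a cluster of 15 UT and 64 BUP-treated cells led by *Tnc*, *Col12a1* and *Mmp2*, had 4 and 14 UMIs, or 13.7 and 9.81 CPM. T-like cells had 10 and 11 UMIs (2.09 and 1.68 CPM), with a log2 ratio of -0.31 (-1.69 to 1.08). Macrophage and monocyte-like cells, which served as the background class for this gene, had 20 and 14 UMIs (0.639 and 0.940 CPM), and 0.677% and 0.851% of them held a *Bdnf* UMI at median depths of 9259.5 and 8884 UMIs. Their log2 ratio was 0.56 (-0.54 to 1.61). NK-like cells had 0 UMIs in UT, which allows 0.858 CPM, and 3 UMIs in 2 cells in BUP.

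*Ntf3*, at chr6:126078375-126143873 on the minus strand, had 3 UMIs in all, and all 3 came from 1 fibroblast-like cell of the UT library. None was found in the BUP library. In tumor-like cells the count was 0 in both libraries, which allows 0.108 CPM in UT and 0.0607 CPM in BUP. The gene was therefore not detectable in the tumor-like, T-like, NK-like and myeloid classes at this depth.

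*Gdnf* (chr15:7840327-7867060, plus strand), the founding ligand of its family, had 25 UMIs in 21 UT cells and 41 UMIs in 40 BUP-treated cells. Tumor-like cells held 87.9% of its 66 UMIs, with 23 UMIs in UT and 35 in BUP. Their level was 0.830 CPM (0.526 to 1.25) in UT and 0.708 CPM (0.493 to 0.985) in BUP, and the log2 ratio was -0.23 (-1.03 to 0.60). The 3 tumor-like clusters lay between 0.650 and 0.948 CPM in both libraries, with overlapping intervals. Fibroblast-like cells, a far smaller class, had 0 UMIs in UT, which allows a level of up to 10.3 CPM (3 UMIs), and 4 UMIs in BUP, or 2.80 CPM (0.764 to 7.18). That BUP level was above the one in tumor-like cells, with overlapping intervals, so the share of UMIs in tumor-like cells does not make them the class with the highest level. Macrophage and monocyte-like cells had 0 UMIs in both libraries.

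*Artn* (chr4:117783113-117786993, minus strand) had 3 UMIs in UT and 18 in BUP. Of its 21 UMIs, 13 lay in fibroblast-like cells, 61.9% (38.4 to 81.9%). The levels there were 6.86 CPM from 2 UMIs in 1 UT cell and 7.71 CPM from 11 UMIs in 8 BUP-treated cells, with intervals that overlap. Tumor-like cells had 0 UMIs in UT and 1 in BUP, and NK-like and T-like cells had 2 each, all in BUP. *Nrtn* (chr17:57058324-57064569, minus strand) had 8 UMIs, each in a different cell. Macrophage and monocyte-like cells held 6 of them (2 in UT and 4 in BUP) and the mixed T and myeloid cluster held the other 2.

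**Figure D3:**
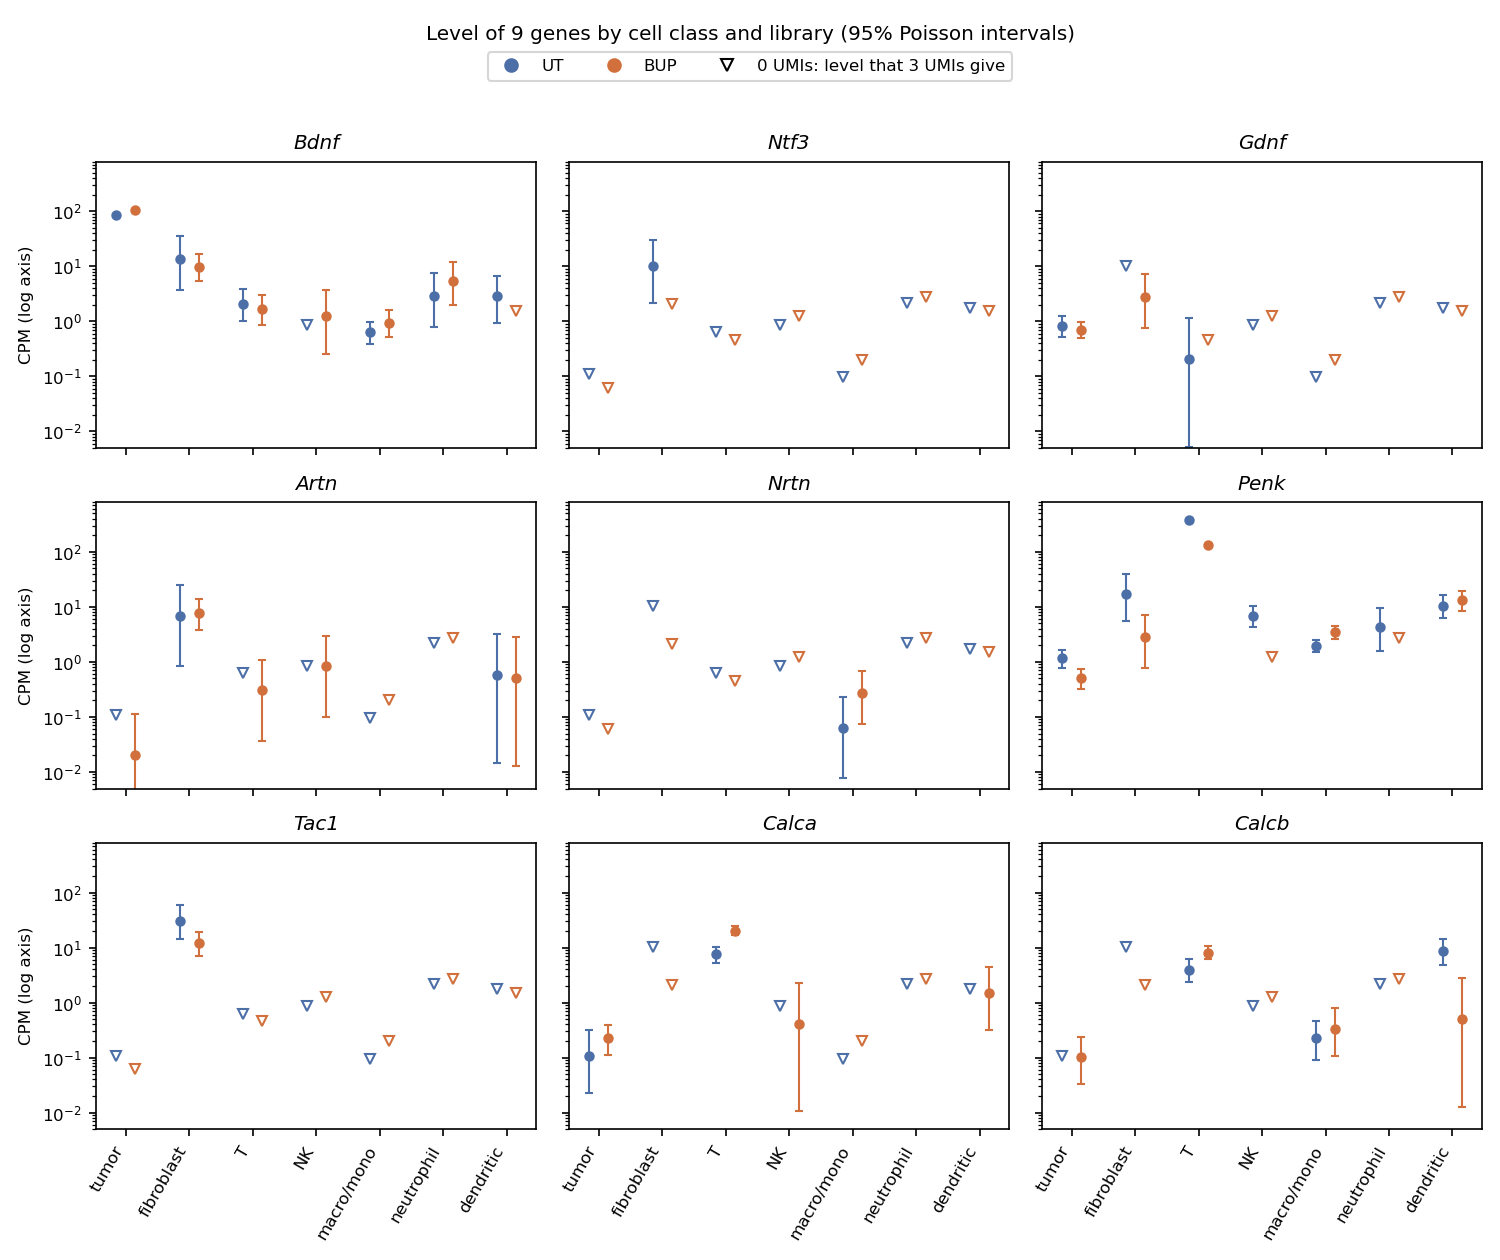
Levels of the 9 genes in CPM (vertical log axis) in 7 cell classes (horizontal axis) for UT (blue) and BUP (orange). Points are summed levels, bars are 95% Poisson intervals (cut at the lower edge of the axis) and open triangles mark a class with 0 UMIs at the level that 3 UMIs would give. *Bdnf* is highest in tumor-like cells at 86.5 and 105 CPM, and *Penk* in T-like cells at 379 and 131 CPM.

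*Penk*, at chr4:4132722-4141856 on the minus strand, had the most UMIs of the 4 precursors, with 2369 UMIs in 295 UT cells and 1353 UMIs in 223 BUP-treated cells. T-like cells held 71.7% (70.2 to 73.2%) of its UMIs and the mixed T and myeloid cluster 19.2%. In T-like cells *Penk* stood at 379 CPM (362 to 397) in UT and 131 CPM (122 to 140) in BUP. The log2 ratio was -1.54 (-1.65 to -1.42), or 2.90-fold lower in the BUP library.

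A smaller share of T-like cells held a *Penk* UMI in the BUP library, and a cell with *Penk* held fewer of them there. The share was 143 of 606 cells (23.6%) in UT and 147 of 853 cells (17.2%) in BUP, at similar median depths of 6300.5 and 6464 UMIs. After thinning to 2000 UMIs, which left out 47 and 61 cells, it was 16.1% (13.1 to 19.4%) and 9.09% (7.18 to 11.3%). The median over cells with *Penk* was 4 UMIs in UT and 2 in BUP. In neutrophil-like cells, taken as background, the share was 0.960% in UT and 0 of 428 cells in BUP, at lower median depths of 1887 and 2131 UMIs. In the deeper macrophage and monocyte-like cells it was 1.64% and 0.638%, and 0.404% and 0.146% after thinning.

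The UMIs were held very unevenly. In UT, 45 T-like cells with at least 10 *Penk* UMIs held 84.6% of the sum, and 14 cells held 50% of it. In BUP, 17 such cells held 62.9%, and 8 cells held 50%. The highest single cells had 132 and 143 UMIs. A Poisson interval treats UMIs as independent, so with so few cells it is narrower than the spread between cells would make it. Without the 5 cells with most *Penk* in each library the levels were 289 and 77.1 CPM, with a log2 ratio of -1.91 (-2.06 to -1.76).

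**Figure D4:**
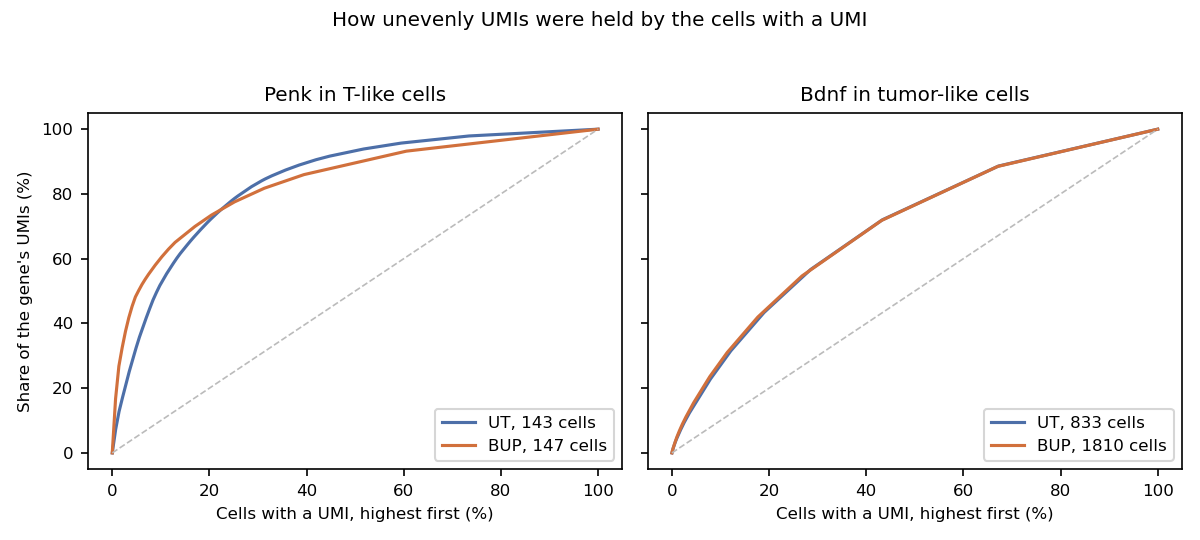
Cumulative share of UMIs (vertical axis, %) against the cells with a UMI, ordered from the highest (horizontal axis, %), for *Penk* in T-like cells (143 UT and 147 BUP-treated cells) and *Bdnf* in tumor-like cells (833 and 1810 cells). The dashed line is an even spread, and the *Penk* curves rise far more steeply than the *Bdnf* curves, where the 2 libraries overlie each other.

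All 3 T-like clusters had less *Penk* in the BUP library. In the CD8 cluster, led by *Cxcr6*, *Cd3g* and *Cd8a*, the level was 402 CPM in UT and 159 CPM in BUP, with a log2 ratio of -1.34 (-1.50 to -1.18). In the cycling cluster, led by histone genes and *Mki67* and carrying some NK cell markers, it was 343 and 104 CPM, with a log2 ratio of -1.72 (-1.91 to -1.52). In the cluster led by *Il17a* and *Foxp3* it was 432 and 102 CPM, with a log2 ratio of -2.08 (-2.65 to -1.55). The mixed T and myeloid cluster differed from these, with 50.9 CPM (45.6 to 56.7) in UT and 56.8 CPM (51.3 to 62.8) in BUP. T-like and mixed cells in 1 sum gave 190 and 93.2 CPM and a log2 ratio of -1.03 (-1.13 to -0.93).

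The *Il17a* and *Foxp3* cluster rested on few cells. Of its 172 *Penk* UMIs in UT, 153 came from 5 cells that also held a UMI of *Foxp3*, the defining factor of regulatory T cells, and in BUP 9 of 35 came from 2 such cells. *Foxp3* itself had 23.6 CPM (UT) and 9.80 CPM (BUP) over the T-like class, and *Cd4* at 28.2 and 8.57 CPM, so the make-up of the class differed between libraries and its part in the *Penk* result was not tested. Without the *Foxp3*-positive cells the order in this cluster was the other way, with 57.5 CPM from 4 UT cells and 93.1 CPM from 2 BUP-treated cells. In CD8 cluster cells without a *Foxp3* UMI, *Penk* had 397 CPM (UT) and 160 CPM (BUP).

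In the other named classes *Penk* was between 0 and 17.2 CPM. NK-like cells had 24 UMIs in 13 UT cells (6.86 CPM) and 0 UMIs in 344 BUP-treated cells, which is at least 5.51-fold lower when 3 UMIs are allowed. This bound was lost under other clustering, with 1.84 CPM (UT) and 0.710 CPM (BUP) at resolution 1.0 and 2.62 and 0.644 CPM with 30 principal components, and the UT level was 2.30 CPM without its 5 highest cells. Dendritic-like cells had 10.5 and 13.1 CPM, with 18 UMIs in 4 UT cells and 26 UMIs in 2 BUP-treated cells, and a log2 ratio of 0.33 (-0.60 to 1.28). With the top-scoring 6% for doublets removed the BUP level was 0, and in thinned cells the ratio was -1.78. Tumor-like cells had 32 UMIs in 20 UT cells and 25 in 9 BUP-treated cells (1.15 and 0.506 CPM), with a log2 ratio of -1.19 (-2.01 to -0.39). Without the highest doublet scores the tumor-like levels were 0.562 and 0.0669 CPM (log2 ratio -3.07), and without the 5 highest cells 0.544 and 0.0812 CPM (-2.74). Their cycling cluster, in which 22.9% of cells had one of the top doublet scores, held 18 UMIs in UT and 2 in BUP, while the *Nppb* and *Krt20* cluster held 9 and 17, a log2 ratio of 0.39 (-0.85 to 1.74).

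Macrophage and monocyte-like cells had 61 *Penk* UMIs in 46 UT cells and 52 UMIs in 9 BUP-treated cells. These give 1.95 and 3.49 CPM and a log2 ratio of 0.84 (0.28 to 1.40). The 5 highest cells held 48 of the 52 UMIs in BUP, and without the 5 highest cells of each library the ratio turned to -2.29. In the *Xkr4* cluster, 1 UT cell held all 70 *Penk* UMIs, and that cell had 95847 UMIs in all, against a cluster median of 9738. Fibroblast-like cells had 5 UMIs in UT and 4 in BUP.

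*Calca* (chr7:114230712-114235592, minus strand) and *Calcb* (chr7:114317878-114322603, plus strand) lie 82286 bases apart. Of the 50-base words in their transcripts, 12 were shared, which is 0.487% of the words of *Calca* and 0.567% of those of *Calcb*, so few reads could be split between them. Counts of *Calca* cannot tell the calcitonin transcript from the CGRP transcript. *Calca* had 49 UMIs in 30 UT cells and 201 UMIs in 120 BUP-treated cells, and *Calcb* had 45 UMIs in 26 cells and 81 UMIs in 68 cells.

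T-like cells held 67.6% (61.4 to 73.4%) of the *Calca* UMIs and the mixed T and myeloid cluster 23.6%. In T-like cells *Calca* stood at 7.53 CPM (5.27 to 10.4) in UT and 20.4 CPM (17.1 to 24.1) in BUP. The log2 ratio was 1.44 (0.89 to 2.01), or 2.70-fold higher in the BUP library. Without the 5 highest cells of each library the levels were 3.36 and 15.7 CPM, with a log2 ratio of 2.22 (1.46 to 3.08). The share of cells with a UMI was 3.30% in UT and 8.91% in BUP, and after thinning 1.97% (0.986 to 3.49%) and 4.80% (3.42 to 6.53%). In macrophage and monocyte-like cells, which are deeper, *Calca* was at 0 UMIs in 2808 UT and 1410 BUP-treated cells, which allows a UMI in up to 0.107% and 0.213% of cells and sets no limit on cells that express the gene.

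*Calcb* was also higher in the BUP library, on fewer UMIs. T-like cells had 19 UMIs in UT and 53 in BUP, or 3.97 CPM (2.39 to 6.21) and 8.12 CPM (6.08 to 10.6). The log2 ratio was 1.03 (0.25 to 1.87). The share of cells with a UMI was 2.64% and 5.04%, and after thinning 0.716% (0.195 to 1.82%) and 1.89% (1.06 to 3.10%), so the thinned shares overlap in their intervals. In thinned cells the log2 ratio was 1.40 (-0.25 to 3.45), an interval that includes 0.

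Within the T-like class both CGRP genes were higher in the CD8 cluster than in the cycling cluster, for *Calcb* in UT on only 11 and 8 UMIs. *Calca* had 11.4 CPM (UT) and 28.0 CPM (BUP) in the CD8 cluster and 4.46 and 14.1 CPM in the cycling cluster, with log2 ratios of 1.30 (0.66 to 1.97) and 1.66 (0.60 to 2.89). *Calcb* was at 4.65 and 10.9 CPM in the CD8 cluster and at 3.96 and 5.71 CPM in the cycling cluster, with log2 ratios of 1.23 (0.22 to 2.35) and 0.53 (-0.76 to 1.95). The *Il17a* and *Foxp3* cluster had 0 UMIs of either gene in UT and 1 UMI of each in BUP. In the mixed T and myeloid cluster *Calca* had 1.54 CPM (UT) and 7.24 CPM (BUP).

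**Figure D5:**
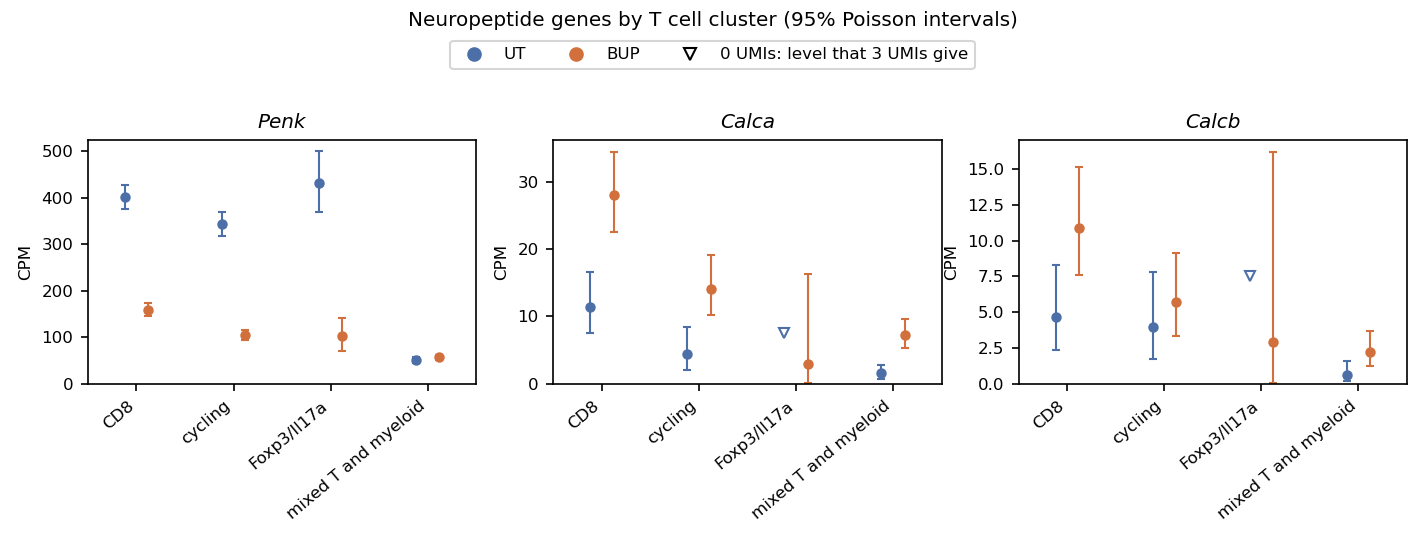
Levels of *Penk*, *Calca* and *Calcb* in CPM (vertical axes, with a different scale in each panel) in the 3 T-like clusters and the mixed T and myeloid cluster, for UT (blue) and BUP (orange). Bars are 95% Poisson intervals and open triangles mark 0 UMIs at the level that 3 UMIs would give; *Penk* is lower and *Calca* higher in BUP in the CD8 and cycling clusters.

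Pairs of the 3 neuropeptide genes were seen together in fewer T-like cells than the product of their shares gives for *Penk* and *Calca*, and in more for the other pairs. Of 96 T-like cells with *Calca* and 290 with *Penk*, 14 held both, and the product of the shares gives 19.1 cells. Taken by library, 4 UT cells held both, where the product gives 4.72, and 10 BUP-treated cells, where it gives 13.1. *Penk* and *Calcb* were together in 18 cells, where the product gives 11.7, and *Calca* and *Calcb* in 8 cells, where it gives 3.88. Deeper cells are more likely to show any pair, so these counts are descriptions.

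T-like cells held 57.1% (48.0 to 65.9%) of the 126 *Calcb* UMIs, the mixed T and myeloid cluster 15.1%, dendritic-like cells 12.7% and macrophage and monocyte-like cells 9.52%. Dendritic-like cells had 15 *Calcb* UMIs in 4 UT cells, or 8.74 CPM (4.89 to 14.4), and 1 UMI in BUP, or 0.506 CPM (0.0128 to 2.82). In UT that level was above the 3.97 CPM (2.39 to 6.21) of T-like cells, with overlapping intervals, and in BUP it was below their 8.12 CPM (6.08 to 10.6). The cluster led by *Ccr7*, *Ccl22* and *Il12b* held 12 of the UT UMIs in 2 cells. Macrophage and monocyte-like cells had 7 and 5 *Calcb* UMIs in 3 cells of each library. Tumor-like cells had 3 and 11 *Calca* UMIs, in 2 and 6 cells.

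*Tac1* (chr6:7554120-7565834, plus strand) was found almost only in the fibroblast-like cluster, with 26 of its 27 UMIs, 96.3% (81.0 to 99.9%), and 1 further UMI in a cell of the cluster led by *Adgre4*. The fibroblast-like cells had 9 UMIs in 5 of 15 UT cells and 17 UMIs in 4 of 64 BUP-treated cells. The levels were 30.9 CPM (14.1 to 58.6) and 11.9 CPM (6.94 to 19.1), with a log2 ratio of -1.37 (-2.62 to -0.03), in a class where 18.2% of genes were past 2-fold. The interval reached 0 under median-ratio scaling (-1.33, -2.57 to 0.02) and in thinned cells (-2.09, -8.39 to 4.20). Of the fibroblast-like cells, 0% in UT and 18.75% in BUP had one of the top doublet scores, and without these the ratio was -1.81 (-3.27 to -0.34). No *Tac1* UMI was found in 1128 UT and 2433 BUP-treated tumor-like cells, which allows a UMI in up to 0.266% and 0.123% of cells.

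Genes most like each of the 5 members with at least 50 UMIs were listed by Pearson correlation of log2(CPM + 1) among 13341 genes. The correlation ran across 41 units of cluster and library with at least 50 cells. The units share libraries, depth and free RNA, so the values are descriptions. For *Bdnf* these were *Ankrd1* (r = 0.95), *Ptpn14* (0.95) and *Platr16* (0.946). For *Gdnf* they were *Arhgap29* (0.816), *Plcd1* (0.804) and *Col18a1* (0.799). For *Penk* they were the chemokine receptor gene *Ccr8* (0.865) and the T cell receptor segments *Trbv13-2* (0.852) and *Trbv31* (0.837). For *Calca* they were *Rgs8* (0.897), *Trav21-dv12* (0.892) and *Trbv13-1* (0.889), and for *Calcb* *Ikzf4* (0.811), *Cd200* (0.789) and *St14* (0.782). Between members, r was 0.648 for *Penk* and *Calca*, 0.621 for *Calca* and *Calcb*, 0.550 for *Bdnf* and *Gdnf* and 0.526 for *Penk* and *Calcb*, and the other 6 pairs of these 5 genes lay between -0.296 and -0.082.

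The receptors of the 9 ligands were read from a list of 22 genes, of which 17 had at least 3 UMIs and 12 had at least 50. For the neurotrophins, the BDNF receptor *Ntrk2* had 18 UMIs over all cells. *Ntrk3*, the NT-3 receptor, had 65 UMIs in UT (13.6 CPM) and 19 in BUP (2.91 CPM) in T-like cells, a log2 ratio of -2.22 (-3.04 to -1.47). *Sort1*, the sorting receptor that binds BDNF precursor, was highest in neutrophil-like cells at 23.4 and 27.2 CPM.

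For the GDNF family, the signaling receptor *Ret* was highest among classes with at least 20 UMIs in NK-like cells, with 20 UMIs in UT and 5 in BUP (5.72 and 2.07 CPM), and had 18 UMIs in fibroblast-like cells. The co-receptor of GDNF, *Gfra1*, was at 3.97 and 2.45 CPM in T-like cells. *Gfra2*, the neurturin co-receptor, was at 36.9 and 29.0 CPM in NK-like cells. *Gfra4* had most of its UMIs in macrophage and monocyte-like cells, 204 in UT and 36 in BUP (6.52 and 2.42 CPM), and was at 6.86 and 26.6 CPM in fibroblast-like cells, from 2 and 38 UMIs. The artemin co-receptor *Gfra3* had 0 UMIs.

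Of the opioid receptors, *Oprm1* was highest in neutrophil-like cells (15.3 and 19.9 CPM) and was at 7.53 and 8.27 CPM in T-like cells, while *Oprd1* had 11 UMIs and *Oprk1* had 0. The substance P receptor *Tacr1* had 2 UMIs over all cells, and *Mrgprb2*, a mast cell receptor for basic peptides, had 28 UMIs in UT and 15 in BUP in mast-like cells. The CGRP receptor is a pair of *Calcrl* and *Ramp1*. *Calcrl* was at 20.5 and 15.5 CPM in macrophage and monocyte-like cells and at 10.3 and 35.7 CPM in fibroblast-like cells, where the UT value rests on 3 UMIs. *Ramp1* was highest in mast-like cells (305 and 300.5 CPM) and was at 81.8 and 105 CPM in NK-like and 61.3 and 44.7 CPM in T-like cells. *Ramp3*, which turns *Calcrl* into an adrenomedullin receptor, was at 313 and 236 CPM in dendritic-like cells, and *Ramp2* was at 51.5 and 22.4 CPM in fibroblast-like cells.

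Among receptors with at least 20 UMIs in a class, 0 of 7 were higher and 2 of 7 lower by 2-fold in tumor-like cells (*Sort1* and *Ramp3*), where 3.73% of all genes were past 2-fold. In T-like cells 0 of 7 were higher and 1 of 7 lower (*Ntrk3*, beside 3.76%). The medians of the log2 ratios were 0.11 and -0.20 in these classes, beside -0.04 and -0.08 over all genes that met the rule. In fibroblast-like cells 2 of 5 were higher (*Gfra4* and *Calcrl*) and 2 of 5 lower (*Ramp2* and *Ramp3*), beside 18.2%. In NK-like cells 1 of 6 was lower (*Ret*, beside 3.53%), in macrophage and monocyte-like cells 1 of 7 (*Gfra4*, beside 4.34%), and in dendritic-like cells 0 of 5 were past 2-fold.

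Neuropeptide precursors need enzymes to become peptides. Of 12 processing genes, all 12 had at least 3 UMIs, and the 3 highest were *Ctsl*, *Pcsk5* and *Furin*. The neuroendocrine convertases were scarce, with 21 UMIs of *Pcsk1* and 48 of *Pcsk2* over all cells. In T-like cells, which held most UMIs of *Penk*, *Calca* and *Calcb*, *Furin* was at 28.9 and 25.0 CPM, *Pam*, which amidates peptides such as CGRP, at 23.6 and 19.1 CPM, and the carboxypeptidase *Cpe* at 1.05 and 0.919 CPM. In tumor-like cells *Cpe* was at 127 and 160 CPM and *Pam* at 233 and 200 CPM. In T-like cells 0 of 7 processing genes were past 2-fold, beside 3.76% of all genes. In fibroblast-like cells 3 of 8 were lower (*Pcsk6*, *Pam* and *Qpct*, beside 18.2%), in tumor-like cells 1 of 9 (*Scg5*, beside 3.73%) and in dendritic-like cells 1 of 6 (*Pam*, beside 5.14%). *Pcsk5* was at 168 and 307 CPM in fibroblast-like cells and *Ctsl* at 3348 and 4375 CPM.

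Of 5 peptide-degrading enzymes, the 3 highest were *Ece1*, *Ace* and *Anpep*. *Ece1* was at 305 and 326 CPM in dendritic-like cells, *Ace* at 250 and 236 CPM in fibroblast-like cells and *Anpep* at 63.5 and 61.2 CPM in dendritic-like cells. *Mme*, the enkephalin-cleaving neprilysin, had 10 UMIs.

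Other ligands and precursors were read beside the 9. Of 12 further neurotrophic ligands, 11 had at least 3 UMIs. *Manf*, a factor of the endoplasmic reticulum, was at 264 and 376 CPM in fibroblast-like cells, its highest class over both libraries together. In UT alone it was higher in NK-like (267 CPM) and mast-like cells (317 CPM). *Nrg1* was at 74.1 and 74.8 CPM in tumor-like cells and *Clcf1* at 54.9 and 80.0 CPM in NK-like cells. Of 21 further neuropeptide precursors, 10 had at least 3 UMIs. *Cck* was at 271 and 18.9 CPM in fibroblast-like cells, from 79 UMIs over the 15 UT cells and 27 UMIs over the 64 BUP-treated cells, *Nmb* at 28.2 and 25.7 CPM in T-like cells, and *Adm* at 37.7 and 14.7 CPM in fibroblast-like cells.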

How the data were processed

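Single-cell RNA was measured in 2 libraries of CT26 tumors, 1 UT and 1 BUP. The deposited values are raw UMI counts per gene and barcode, which the authors made with Cell Ranger (8.0.1 in the submitters' processing notes) on GRCm39 from a 5′ assay. Barcodes with over 100 UMIs and under 20% mitochondrial UMIs were kept. Clusters were made with Seurat 5.3.0 in R 4.3.3 (2000 variable genes without the 9 genes and the listed genes, 20 principal components, resolution 0.5), first on all cells and then on clusters in which at least 30% of cells held a *Ptprc* UMI. Sums and intervals were made in Python 3.11.15 with scipy 1.17.1, and each cell got a Scrublet score (scanpy 1.11.5). The ratio calculation was tested on simulated data. Those data drew summed UMIs from a Poisson distribution. They lacked the uneven holding of UMIs by few cells seen for *Penk*, so they do not test the intervals for such genes.

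Names needed at least 3 markers at 15 CPM or more. A cluster with a second lineage at 33% or more of the score of the first was called mixed, with T and NK cells taken as one lineage and myeloid cells as another. Leading genes also counted: they could waive this call, or give it where they belonged to another cell type. Low depth or leading genes of other cells left a cluster unnamed. The cluster led by *Adgre4* (738 cells) scored highest on macrophage and monocyte markers but stayed outside that class by its low depth and leading genes. These limits were chosen with the clusters in view. The 9 genes and all lists were chosen with earlier results of these data known. Named genes were every member, the 3 genes of each list with the highest CPM in a class with at least 20 UMIs, and every receptor with at least 50 UMIs. The 3 genes most like each member with at least 50 UMIs were also named. The other genes of the lists were named after their values were seen. *Nrg1* has 2 entries, of which the main one was used. *Bdnf*, *Ntf3* and *Penk* overlap non-coding genes on the opposite strand and *Calca* overlaps one on its own strand, and strand and intron settings of the counting are not given in the sources used here. The count of 0 was treated as allowing 3 UMIs. Alternatives changed the cell filter, the clustering, the scaling, the depth, doublets and single cells.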

Additional observations from a re-analysis of the deposited data

Results flagged for a closer look

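Barcodes removed for their mitochondrial share lay outside the comparisons. The 445 such barcodes of the BUP library held 25 *Bdnf* UMIs, or 38.3 CPM, above the 4.59 CPM that a count of 0 would allow, and the 393 of the UT library held 7 UMIs, or 11.8 CPM. *Penk* differed in direction between cell classes, and this difference was not tested. Its log2 ratio of BUP over UT was 0.84 in macrophage and monocyte-like cells, against -1.19 in tumor-like and -1.54 in T-like cells, and in NK-like cells it was -2.46 or lower when 3 UMIs are allowed for the 0 in BUP, a limit that was lost at resolution 1.0 (1.84 and 0.710 CPM in UT and BUP) and with 30 principal components (2.62 and 0.644 CPM). The value in macrophage and monocyte-like cells rested on 5 cells of the BUP library, and the value in tumor-like cells was -3.07 without the highest doublet scores.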

How the results depend on the processing

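Of 303 values under the alternatives, 211 stayed within the 95% counting interval of the reported value (shares of genes past 2-fold, within 1.5 times). Of 87 log2 ratios, 5 changed sign. In 3 of them the interval of the reported value had left out 0, all for *Penk* in macrophage and monocyte-like cells, where 0.84 became -0.15 in thinned cells, -0.18 as a mean over cells and -2.29 without the 5 highest cells. The other 2 were *Penk* in dendritic-like cells (0.33, and -1.78 in thinned cells) and *Gdnf* in tumor-like cells (-0.23, and 0.21 without the 5 highest cells). *Penk* in NK-like UT cells ranged from 1.84 to 44.3 CPM, the latter as a mean over cells, and the *Penk* ratio in tumor-like cells from -3.07 to -1.13. *Bdnf* in tumor-like cells was 96.7 CPM (UT) and 112 CPM (BUP) as a mean over cells and 108 CPM (BUP) without the highest doublet scores, and its log2 ratio was 0.17 in thinned cells. *Penk* in T-like cells was 452 and 150 CPM (UT and BUP) at resolution 1.0, and 435 and 153 CPM with 30 principal components. It was 312 CPM (UT) as a mean over cells, and 289 and 77.1 CPM without the 5 highest cells. The next 2 alternatives were chosen after seeing the data. With the mixed cluster *Calca* was at 4.08 and 13.7 CPM (UT and BUP) and *Calcb* at 2.04 and 5.11 CPM. *Penk* was at 190 and 93.2 CPM with the mixed cluster, and without the cycling cluster at 406 and 153 CPM. Its log2 ratio was -1.77 in thinned cells, -1.20 as a mean over cells, -1.91 without the 5 highest cells, -1.03 with the mixed cluster and -1.41 without the cycling cluster. The *Calca* ratio was 2.22 without the 5 highest cells, and the *Calcb* ratio stayed between 1.00 and 1.44, with an interval that included 0 in thinned cells. The interval of the *Tac1* ratio included 0 under median-ratio scaling and in thinned cells. The cause of these moves was not tested. With at least 50 UMIs a gene, the share past 2-fold was 1.72% in tumor-like, 1.82% in T-like, 1.29% in NK-like, 2.26% in macrophage and monocyte-like, 2.07% in dendritic-like and 12.2% in fibroblast-like cells. No paired analysis was possible because each group has 1 library. With 1 library per group, differences between mice, libraries and treatment cannot be told apart.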

Other observations

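T cell receptor segments differed between the libraries in the CD8 and cycling T-like clusters, and the neuropeptide genes were spread over them. *Trbv1* was the leading segment in 127 UT cells (25.7%) and in 12 BUP-treated cells (1.56%), and *Trbv13-1* in 22 UT and 166 BUP-treated cells (21.6%). The part of these differences in the levels of *Penk* and *Calca* was not tested. Of 9 segments with at least 10 cells in each library, *Penk* was lower in BUP in 6 and higher in 3, *Calca* was lower in 2 and higher in 7, and *Calcb* was lower in 3 and higher in 6. This tally took a count of 0 as 0. The UT count was 0 for *Calca* with *Trbv13-1*, *Trbv13-3*, *Trbv2* and *Trbv17*, and for *Calcb* with *Trbv13-3*, *Trbv29* and *Trbv17*. With 3 UMIs allowed for a 0, the level stayed higher in BUP only for *Calca* with *Trbv2* (33.6 CPM in BUP). The direction was not settled in the others. For *Penk* the levels were 1479 CPM in UT and 133 CPM in BUP for *Trbv17* and 513 and 52.6 CPM for *Trbv31*, *Trbv19* had 527 and 475 CPM, and *Trbv13-2* was higher in BUP, at 63.8 and 200.1 CPM. In BUP, 15 cells with *Trbv26* held 21 *Calca* UMIs, and 108 cells with *Trbv2* held 29, while the 19 UT cells with *Trbv2* held 0.

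Neuronal markers were read in the same cells. *Nefl*, a neurofilament gene, had 25.1 CPM (UT) and 15.1 CPM (BUP) in tumor-like cells and *Tubb3* at 15.2 and 8.36 CPM, while *Syt1* was higher in BUP at 5.77 and 9.81 CPM. *Snap25* was at 0 there in both libraries, and *Stmn2*, *Prph* and *Elavl4* were under 0.5 CPM. At least 3 of 7 neuronal markers were found in 6 UT and 22 BUP-treated cells, and at least 3 Schwann cell markers in none of 7163 UT and 6776 BUP-treated cells. Tumor-like cells held 1280 of the 1437 UMIs of the neuronal markers in UT and 1684 of 1845 in BUP. They were also more numerous in the BUP library (2433 against 1128 cells), and the counts of 6 and 22 cells were not adjusted for this or for depth.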
